A study of Homo sapiens with 36 samples.

Results

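The genes described here act in the G2 phase of the cell cycle and in mitosis. They were a fixed list of 40 genes, each read by 1 probe, namely its brightest on average among those that passed a detection filter. All 40 passed, of 9902 genes tested in all. Expression had been measured on Illumina HumanWG-6 BeadChips in ZR-75-1, an established line of human breast cancer cells with estrogen, progesterone and androgen receptors. The 36 arrays formed 9 groups of 4, and the question for these genes was whether steroids that bind those receptors changed the mitotic program of the cells. Cells in all 9 groups had been kept in medium stripped of hormones. They then received vehicle or one of 8 treatments. The single hormones were the estrogen estradiol (E2), the natural progestin progesterone (P4), the synthetic progestin medroxyprogesterone acetate (MPA) and the androgen dihydrotestosterone (DHT). In E2+P4, E2+MPA and E2+DHT, E2 was combined with one of the other steroids, and E2pre+P4 joined P4 to a long E2 exposure. Each hormone was used at 10 nM for 16 h, apart from the E2 of the E2pre+P4 group, which was given for 72 h. The sources differ on whether the P4 of that group was given within the 72 h or after them, and no group had E2 alone for 72 h. Nothing in the labels ties replicates to separate cultures, so p-values measure only the spread between these arrays, which may be technical.

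A cell enters mitosis when CDK1, bound to a B-type cyclin, is switched on by CDC25 phosphatases. Polo and Aurora kinases then build the spindle, and kinetochore proteins tie each chromosome to it. The spindle checkpoint (BUB1, BUB1B, BUB3, MAD2L1, TTK) holds back the anaphase-promoting complex until every chromosome is attached. The complex, activated by CDC20 and working with the ubiquitin-conjugating enzyme UBE2C, then marks securin (PTTG1) and the cyclins for destruction, separase (ESPL1) parts the sister chromatids, and the cell divides. Most of these genes are transcribed together late in the cycle. In estrogen receptor-positive breast cancer cells, estrogen is known as a mitogen, and the amount of these mRNAs is widely read as a measure of proliferation. In a bulk extract, however, fewer dividing cells and less mRNA per cell cannot be told apart.

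Promoters of such genes are known for a CCAAT box, which binds the factor NF-Y, and for the cell cycle genes homology region (CHR), which binds the DREAM and MYB-MuvB complexes. RefSeq promoters on GRCh38.p14 (250 bases before to 50 after a transcription start) were at hand for 33 of the 40 genes, 44 promoters in all. Searched on both strands, the CHR (TTTGAA or TTTAAA) was found for 29 of the 33 genes (87.9%), against 27.9% of all 27305 genes with a promoter. CCAAT was found for 27 of the 33 (81.8%), against 39.7% of all, and both elements in 1 promoter for 22 (66.7%), against 11.2%. An E2F element (TTTCGCGC or TTTGGCGC) was found for 2 of the 33 (6.06%), against 1.40% of all. TTTAAA reads the same on both strands, and none of these motifs contains another. The sequences of CCNB1, CDC20 and NEK2 are shown because the arrays read these genes very differently as described after them, while each promoter holds a pair of CCAAT boxes. Capitals mark CHR and CCAAT matches on either strand, and each sequence runs 5′ to 3′ along its gene.
CCNB1 (chr5:69166900-69167199, plus strand): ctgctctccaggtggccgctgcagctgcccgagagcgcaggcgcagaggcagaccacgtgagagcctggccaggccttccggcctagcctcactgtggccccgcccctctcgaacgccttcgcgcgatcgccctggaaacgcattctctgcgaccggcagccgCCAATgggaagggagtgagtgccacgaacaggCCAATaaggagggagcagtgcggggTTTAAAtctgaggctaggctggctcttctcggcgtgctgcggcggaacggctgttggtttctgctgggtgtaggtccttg
CDC20 (chr1:43358731-43359030, plus strand): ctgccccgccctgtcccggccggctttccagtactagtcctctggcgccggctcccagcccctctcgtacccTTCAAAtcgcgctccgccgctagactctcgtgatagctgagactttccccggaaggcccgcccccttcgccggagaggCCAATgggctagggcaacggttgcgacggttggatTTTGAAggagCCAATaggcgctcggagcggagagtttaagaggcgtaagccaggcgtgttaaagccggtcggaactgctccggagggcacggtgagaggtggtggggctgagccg
NEK2 (chr1:211675572-211675871, minus strand): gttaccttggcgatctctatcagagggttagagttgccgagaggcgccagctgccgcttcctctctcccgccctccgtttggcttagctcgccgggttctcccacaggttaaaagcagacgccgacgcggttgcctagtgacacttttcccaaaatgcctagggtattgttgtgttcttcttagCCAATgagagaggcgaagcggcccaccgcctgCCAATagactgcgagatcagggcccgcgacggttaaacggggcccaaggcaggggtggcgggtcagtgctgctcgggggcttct
CCNB1 had its CHR 30 bases before the start and CCAAT boxes 87 and 55 bases before it. CDC20 had CHR matches 178 and 65 bases and CCAAT boxes 100 and 55 bases before its start. NEK2 had CCAAT boxes at 66 and 34 bases before its start and neither form of the CHR in this window.

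Between 12191 and 14806 of 48803 probes were detected per array (median 13403.5). All 8 luminal epithelial markers checked, among them ESR1, GATA3 and KRT8, were detected on 36 of 36 arrays. Of the 6 leukocyte, 7 stromal, 5 endothelial and 4 basal markers with a probe, 1 of each passed the filter (CD68, COL1A1, VWF and ACTA2, on 35, 36, 9 and 36 arrays), and PTPRC, COL3A1, CDH5 and KRT5 were detected on 0. PDZK1, an estrogen target, was 5.20 higher with E2 than with vehicle on the log2 scale. The mRNA of PGR, the progesterone receptor, was detected on 0 of 4 arrays in each of the vehicle, P4, MPA and DHT groups. In the groups with E2 it was detected on 2 to 4 of 4. Replicate 2 of E2 and replicate 2 of E2pre+P4 went against their labels. SERPINA3, a protease inhibitor gene, read 12.42 on the former, against 9.30 to 9.52 on the other E2 arrays, and 9.42 on the latter, where the rest of its group had 12.47 to 12.88. Counts of the comparisons that hold E2 or E2pre+P4 arrays are also given without both. Levels are background-corrected, quantile-normalised log2 signal intensities, which are not compared between probes, and arrays are listed from replicate 1 to replicate 4.

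The 40 genes were divided for description by their spread within groups, into steady and variable ones. The standard deviation (SD) within groups, on the log2 scale, ran from 0.11 for CDC20 to 1.23 for NEK2, with a median of 0.24, against 0.28 over all genes. It was over 0.4 for 10 of the 40 genes (25%, not far from the 19.5% of all genes): NEK2, BUB1, ECT2, CCNB1, NDC80, ASPM, CDK1, BUB1B, TTK and ANLN. No other cut was tried, and NUF2, at 0.397, lay just under this one. The columns were taken in their deposited order as runs of 6 consecutive arrays. The mean level of each of the 10 genes was between 0.45 (TTK) and 2.21 (NEK2) lower in runs 3 and 4 than in the other runs, leaving out vehicle replicate 1 and E2+MPA replicate 3. Without the same arrays, NEK2, a centrosome kinase, read 9.66 to 10.63 in runs 3 and 4 and 11.87 to 13.002 in the other runs. ECT2, which activates RhoA for cytokinesis, read 9.86 to 10.54 and 11.45 to 12.30. NDC80, which anchors microtubules at the kinetochore, read 7.38 to 8.65 and 9.36 to 10.09. Still without those arrays, runs 3 and 4 lay wholly below the others in 6 of the 40 genes (15%), against 4.75% of all genes. They lay wholly above in 0 of the 40, against 0.555%. Runs 3 and 4 and the arrays left out were singled out from these same data, so these shares are no test. In each of the 6 genes, vehicle replicate 1, in run 1, read below the highest array of runs 3 and 4 (NEK2 at 7.41). What the runs stand for is not given in the sources used here.

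**Figure D1:**
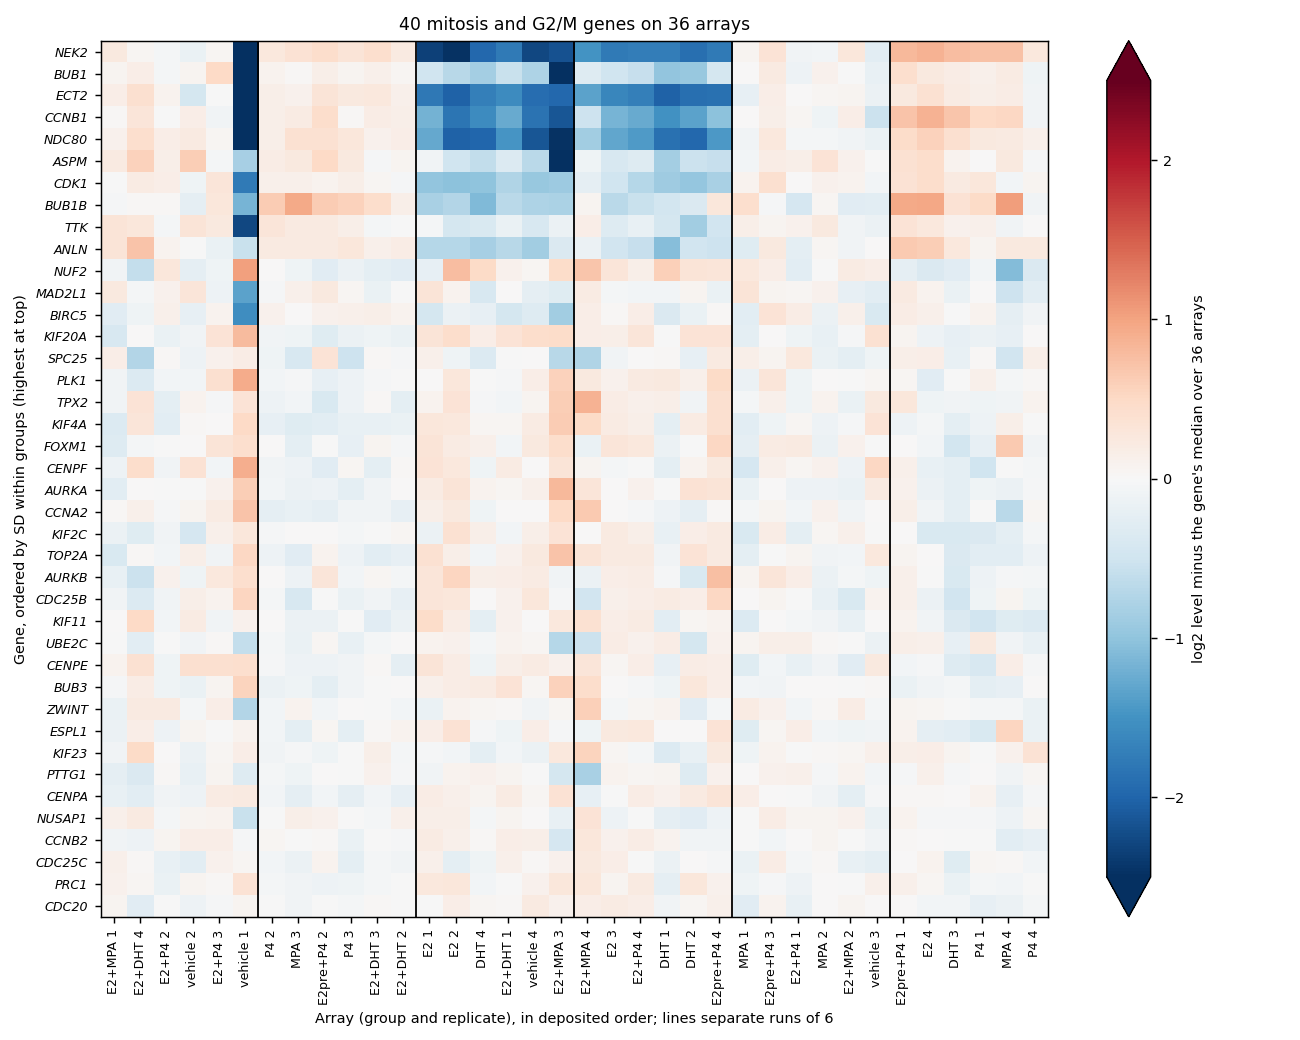
Log2 level of each of the 40 genes minus its median over the 36 arrays (colour), with genes in rows by SD within groups and arrays in columns in the deposited order. Most of the variable genes at the top are low in runs 3 and 4 and on vehicle replicate 1, while most of the steadier genes stay near 0.

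Runs 3 and 4 did not hold the groups evenly. They held 3 of the 4 E2 arrays, 3 of the DHT, 2 of the E2+MPA, 1 each of the vehicle, E2+P4, E2+DHT and E2pre+P4 arrays, and 0 of the P4 and MPA arrays. Vehicle replicate 1, in run 1, also stood apart, with NEK2 at 7.41, CCNB1 at 5.14 and BIRC5 at 9.68 but PLK1 at 10.51. It had the lowest mean over the 40 genes (10.84, against a median of 11.35 over all arrays). Of the 4 vehicle arrays it was the lowest for 15 of the 40 genes and the highest for 20. On E2+MPA replicate 3, in run 3, BUB1 read 5.01, against 10.23 to 10.64 on the other E2+MPA arrays. Counts over the 40 genes are therefore also given with the run as a block, and single genes in part without 4 arrays (these 2 and the 2 that went against their labels) and with the run as a block, a choice made after seeing the data. With the run as a block and all arrays, the SD of NEK2 was 0.81 in place of 1.23, that of CDK1 0.35 in place of 0.51, and that of ANLN, an actin-binding protein of the cleavage furrow, 0.23 in place of 0.44. The promoter elements were found on both sides of this division, the CHR in 7 of 9 genes with an SD over 0.4 and a promoter and in 22 of 24 others, and CCAAT in 6 of 9 and 21 of 24.

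Probes of the same gene differed in this respect. Of the 40 genes, 22 had 1 probe that passed the filter and 18 had several. For 9 of the 18, the difference between the other runs and runs 3 and 4 was not the same for all probes, with more than 1 (log2) between them. The NEK2 probe in use was 2.21 higher in the other runs, while the difference of the second NEK2 probe was -0.13. Both CDK1 probes followed the runs, with differences of 0.93 and 2.05. In NUF2 and MAD2L1, a kinetochore and a checkpoint gene, the probe in use differed by -0.48 and 0.03, and the probe not in use by 2.09 and 1.76. KIF11, a spindle motor, had -0.20 for the probe in use and 1.73 for the other, and SPC25, a partner of NDC80, 0.04 and 1.08. BUB3, ZWINT and CENPE also had a steady probe in use and at least 1 other that followed the runs. Which genes appear variable therefore depended on the probe read.

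**Figure D2:**
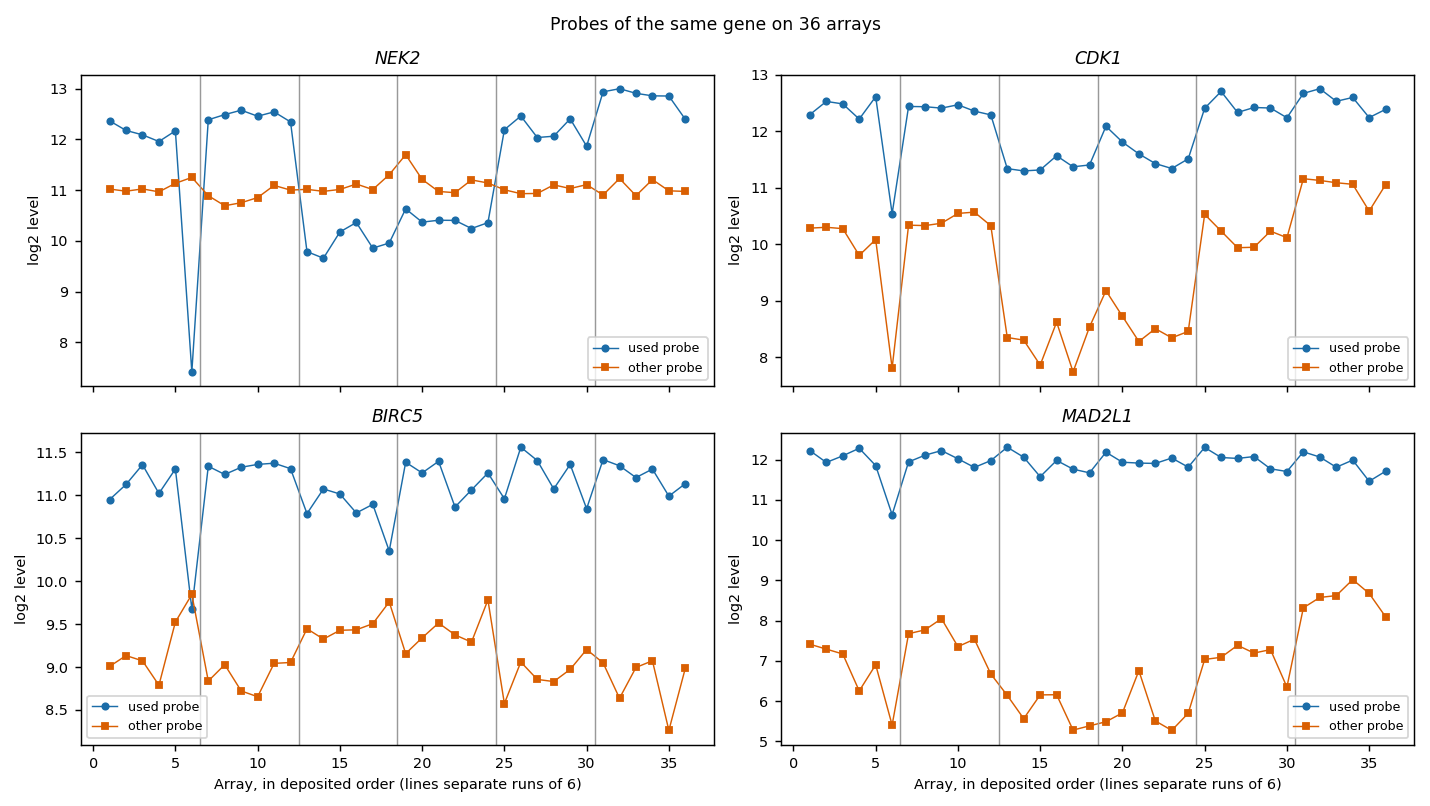
Log2 level of each passing probe of the genes shown on the 36 arrays in the deposited order, with lines between runs of 6. Only the course along the arrays can be compared, since probes differ in brightness: the NEK2 probe in use is 2.21 higher outside runs 3 and 4, and the other differs by -0.13.

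Against vehicle, 1 of the 40 genes passed the test in 1 of 8 treatments, BIRC5 with E2pre+P4. BIRC5 encodes survivin, the subunit that guides Aurora B in the chromosomal passenger complex. BIRC5 stood at 9.68, 11.02, 10.84 and 10.89 on the vehicle arrays, at 10.78, 11.07, 11.26 and 11.34 with E2 and at 11.30, 11.34, 11.36 and 11.13 with P4. With MPA, BIRC5 read 10.96, 11.07, 11.24 and 10.99, with DHT 10.86, 11.06, 11.20 and 11.01 and with E2+P4 11.40, 11.35, 11.30 and 11.39. With E2+MPA, BIRC5 read 10.95, 11.36, 10.35 and 11.38, with E2+DHT 10.79, 11.31, 11.37 and 11.12 and with E2pre+P4 11.41, 11.32, 11.56 and 11.26. All E2pre+P4 arrays (mean 11.39 ± 0.13, SD, n = 4) lay above all vehicle arrays (10.61 ± 0.63, SD, n = 4), and vehicle replicate 1 was the low one. BIRC5 was 0.78 ± 0.21 (SE) higher on the log2 scale with E2pre+P4, or 1.72-fold (95% interval of the log2 difference 0.35 to 1.21, limma, adjusted p = 0.0218). It was also called without the 2 arrays that went against their labels (0.80 ± 0.23, adjusted p = 0.0382). It was not called without vehicle replicate 1 (0.47 ± 0.17, limma, adjusted p = 0.181), nor with the run as a block (0.54 ± 0.22, adjusted p = 0.181). Within run 5, the only one with both groups, the E2pre+P4 array lay 0.72 above the vehicle array. The second BIRC5 probe differed by -0.18 between E2pre+P4 and vehicle, and the mean of both probes by 0.30 ± 0.12 (SE, adjusted p = 0.118). With E2+P4 the probe in use was 0.76 ± 0.21 (SE) higher, which missed the threshold (adjusted p = 0.0547).

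The 8 comparisons share the vehicle arrays, and their counts were read beside those over all genes. With E2 alone, 0 of the 40 genes were called in limma, against 1.37% of all genes, and 4 had an unadjusted p under 0.05, against 10.5%. DHT gave 0 and 4, against 2.40% and 14.0%, and all 4 were lower. With E2+P4 the counts were 0 and 4, against 1.92% and 15.2%. With E2+MPA they were 0 and 5, against 3.87% and 18.3%, and with E2+DHT 0 and 8, against 4.81% and 21.9%. With E2pre+P4 they were 1 and 10, against 6.18% and 24.8%. Its arrays did not overlap with those of vehicle for 2 higher genes, BIRC5 and BUB1B (2.79% of all genes), and 1 lower gene, CENPE (6.09% of all). With all arrays, none of these shares of the 40 genes stood clearly above that of all genes. With the run as a block, the numbers of the 40 genes at an unadjusted p under 0.05 (and the percentages of all genes) were 4 (14.5%) with E2, 8 (15.3%) with DHT, 10 (1985 of the 9902 genes) with E2+P4, 12 (25.7%) with E2+MPA, 8 (22.1%) with E2+DHT and 6 (18.5%) with E2pre+P4. Of these comparisons, E2+MPA then had 1 call, CDC25B (6.42% of all genes), and the other 5 had 0 in limma. Without the 2 arrays that went against their labels, the unadjusted counts were 3 (9.98%) with E2 and 3 (19.1%) with E2pre+P4, and BIRC5 with E2pre+P4 was the 1 call (5.50% of all genes).

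P4 alone and MPA alone had the highest unadjusted counts. With P4, 0 of the 40 genes were called in limma, as were 0% of all genes, and 15 of the 40 (8 higher, 7 lower) had an unadjusted p under 0.05, against 26.3% of all. With MPA, 0 were called, against 1.96%, and 19 (9 higher, 10 lower) had an unadjusted p under 0.05, against 28.3%. P4 and vehicle arrays did not overlap for 6 higher genes (ANLN, BIRC5, BUB1B, CDK1, ECT2 and NEK2, against 6.34% of all genes) and 6 lower ones (AURKA, CDC25B, CENPE, KIF4A, PRC1 and TOP2A, against 9.55%). MPA and vehicle arrays did not overlap for 3 higher genes (BUB1B, CDK1 and NEK2, against 4.34%) and 7 lower ones (AURKA, CDC25B, CENPE, KIF11, KIF20A, PRC1 and TOP2A, against 6.66%). All 10 genes with an SD over 0.4 had positive fitted differences with P4 (median 1.07) and with MPA (median 1.20). The other 30 had medians of -0.22 and -0.19, against -0.12 over all genes in both comparisons. The 10 genes were picked by their spread in these same data and read lower in runs 3 and 4, where no P4 or MPA array lay. Their positive differences are therefore no separate result. With the run as a block, 0 of the 40 genes had an unadjusted p under 0.05 with P4, against 4.31% of all genes, and 3 with MPA, against 11.3%. P4 arrays shared no run with vehicle arrays, and MPA arrays shared only run 5 with them. Every P4 difference from vehicle with the run as a block, here and below, is therefore estimated only through other groups.

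Single vehicle arrays decided the counts. Vehicle replicate 2 was the highest vehicle array for NEK2, BUB1, CCNB1, NDC80, ASPM, BUB1B and TTK. Without it, 10 of the 40 genes were called with P4 (12.3% of all genes) and 10 with MPA (18.2%), with BUB1B, CCNB1, CENPF, ECT2, KIF20A, NDC80, NEK2 and TTK in both. NEK2 was then 2.81 ± 0.85 (SE) higher with P4 (limma, adjusted p = 0.0399), and KIF20A differed by -0.63 ± 0.18 (adjusted p = 0.0361). The same omission gave 1 call with E2+P4 (3.35% of all genes), 3 with E2+DHT (11.3%) and 5 with E2pre+P4 (14.5%). Without vehicle replicate 1, 0 of the 40 were called in limma in any of the 8 comparisons. With E2pre+P4, calls over all genes fell too, to 2.85% of all genes without this array, against 6.18% with all arrays. For the other treatments the share of all genes without this array is not given here. The 0 is therefore not read as particular to the 40 genes.

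**Figure D3:**
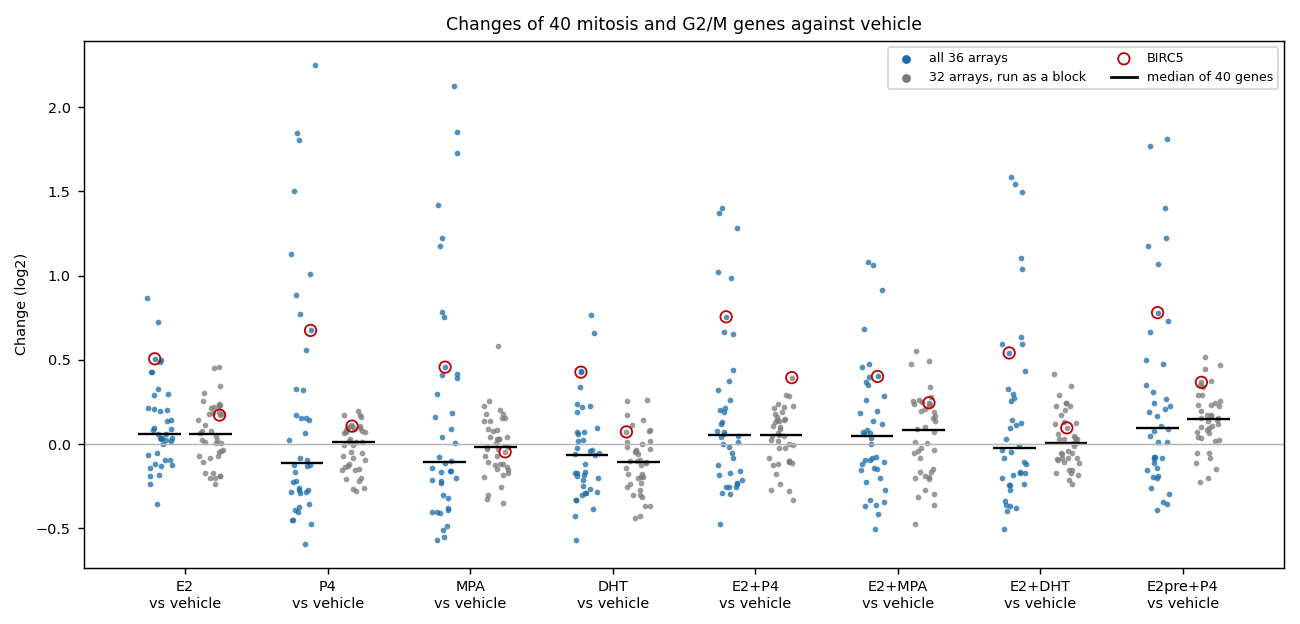
Fitted change against vehicle (log2, y axis) of each of the 40 genes in the 8 treatments, with all 36 arrays and with 4 arrays left out and the run as a block; bars are medians and BIRC5 is ringed. With all arrays the points reach 2.25 with P4 (NEK2), which is 0.09 with 4 arrays left out and the run as a block. P4 and vehicle arrays shared no run, so the latter value is estimated only through other groups.

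Medians over the 40 genes lay nearest to those over all genes with P4 and MPA, and furthest from them with E2pre+P4. The median difference from vehicle was 0.06 with E2 (all genes -0.01), -0.11 with P4 (all genes -0.12), -0.10 with MPA (all genes -0.12) and -0.06 with DHT (all genes -0.03). It was 0.05 with E2+P4 (all genes -0.03), 0.05 with E2+MPA (all genes -0.03), -0.02 with E2+DHT (all genes -0.07) and 0.10 with E2pre+P4 (all genes -0.06). With E2pre+P4 the median over the 40 genes ran from 0.05 to 0.27 over 21 alternatives. Between single replicate arrays, the median over the 40 genes had an SD of 0.11, and means of 4 arrays vary less than single arrays. Whether these medians differ from those of all genes was not tested.

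The mitotic cyclins, CDK1 and its activators held genes of both kinds. CCNB1 encodes cyclin B1. CCNB1 stood at 5.14, 9.87, 9.16 and 7.87 on the vehicle arrays, at 8.53, 7.87, 8.53 and 10.58 with E2 and at 10.21, 9.85, 9.74 and 9.62 with P4. With MPA, CCNB1 read 9.72, 9.60, 9.91 and 10.23, with DHT 8.20, 8.36, 10.40 and 8.14 and with E2+P4 9.76, 9.69, 9.62 and 8.45. With E2+MPA, CCNB1 read 9.73, 9.87, 7.57 and 9.19, with E2+DHT 8.45, 9.85, 9.90 and 10.01 and with E2pre+P4 10.42, 10.15, 9.86 and 8.69. Vehicle replicates 1 and 3 and all arrays of runs 3 and 4 read 9.19 or less, and all other arrays read higher. CCNB1 was 1.85 ± 0.69 (SE) higher with P4 than with vehicle (limma, adjusted p = 0.134), and 0.02 ± 0.21 higher without 4 arrays and with the run as a block (adjusted p = 1). CDK1 is the kinase that cyclin B1 activates. CDK1 stood at 10.54, 12.22, 12.24 and 11.37 on the vehicle arrays, at 11.34, 11.30, 11.81 and 12.76 with E2 and at 12.60, 12.44, 12.47 and 12.39 with P4. With MPA, CDK1 read 12.41, 12.42, 12.44 and 12.24, with DHT 11.43, 11.34, 12.53 and 11.32 and with E2+P4 12.34, 12.49, 12.62 and 11.60. With E2+MPA, CDK1 read 12.30, 12.41, 11.41 and 12.09, with E2+DHT 11.57, 12.29, 12.36 and 12.53 and with E2pre+P4 12.67, 12.41, 12.71 and 11.51. The P4 arrays lay above all vehicle arrays, among which replicates 1 and 4 were low. CDK1 was 0.88 ± 0.35 (SE) higher with P4 (adjusted p = 0.14), and 0.16 ± 0.17 higher without 4 arrays and with the run as a block (adjusted p = 1). The other 4 genes were steadier, with SDs of 0.14 for CCNB2 and CDC25C, 0.20 for CDC25B and 0.23 for CCNA2. CDC25B, a phosphatase that activates CDK1, differed by -0.51 ± 0.15 (SE) between E2+MPA and vehicle, just outside the threshold (adjusted p = 0.0505). It was called with the run as a block, as were 6.42% of all genes (-0.53 ± 0.13, adjusted p = 0.0151). It was not called without 4 arrays and with the run as a block (-0.48 ± 0.15, adjusted p = 0.0664), nor without vehicle replicate 1 (-0.41 ± 0.16, limma, adjusted p = 0.175). Within runs 1, 3 and 5, E2+MPA differed from the vehicle arrays of the run by -0.42, -0.31 and -0.47.

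**Figure D4:**
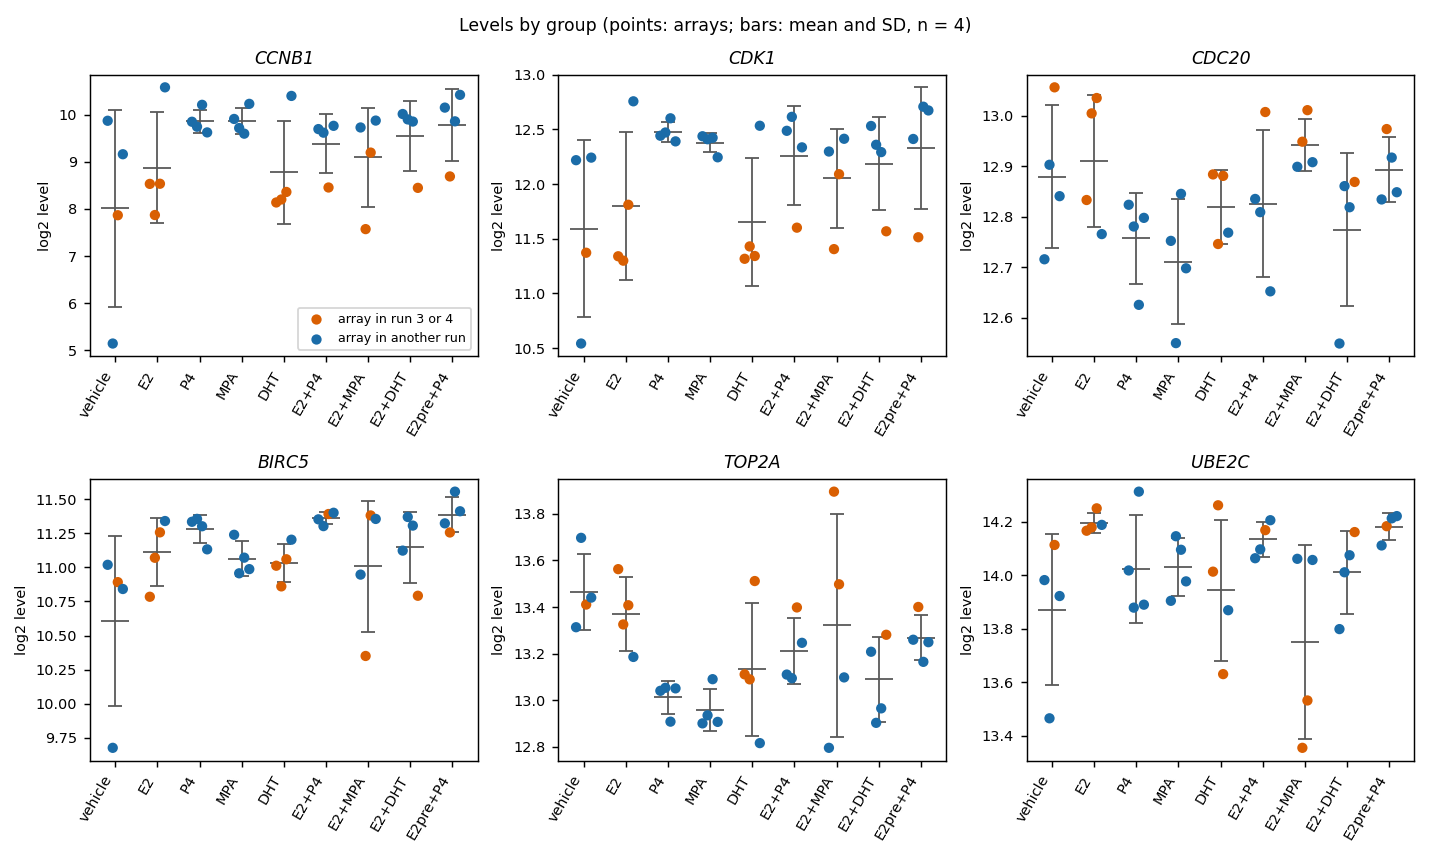
Log2 level of CCNB1, CDK1, CDC20, BIRC5, TOP2A and UBE2C on each array by group, with points for arrays, coloured by whether the array lies in runs 3 and 4, and bars for the mean and SD (n = 4); each panel has its own axis. CCNB1 and CDK1 are low on arrays of runs 3 and 4 and on vehicle replicate 1, and CDC20 stays between 12.55 and 13.06 throughout.

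Among the mitotic kinases, PLK1, AURKA and AURKB were steady, and NEK2 and TTK were variable. PLK1 drives mitotic entry and spindle assembly. PLK1 stood at 10.51, 9.50, 9.61 and 9.75 on the vehicle arrays, at 9.59, 9.87, 9.68 and 9.30 with E2 and at 9.70, 9.51, 9.44 and 9.60 with P4. With MPA, PLK1 read 9.44, 9.58, 9.55 and 9.53, with DHT 9.81, 9.69, 9.57 and 9.56 and with E2+P4 9.47, 9.50, 9.98 and 9.79. With E2+MPA, PLK1 read 9.48, 9.56, 10.14 and 9.82, with E2+DHT 9.55, 9.56, 9.54 and 9.24 and with E2pre+P4 9.62, 9.37, 9.87 and 10.06. Vehicle replicate 1 and E2+MPA replicate 3 were the highest, and the groups overlapped in all comparisons. The differences from vehicle ran from -0.37 ± 0.18 (SE) with E2+DHT to -0.09 ± 0.18 with E2+MPA (lowest adjusted p = 0.218). AURKA acts at the spindle poles. AURKA stood at 13.61, 12.996, 13.23 and 13.13 on the vehicle arrays, at 13.21, 13.33, 13.01 and 12.85 with E2 and at 12.89, 12.93, 12.75 and 12.97 with P4. With MPA, AURKA read 12.84, 12.89, 12.86 and 12.85, with DHT 12.99, 13.36, 12.76 and 13.09 and with E2+P4 12.87, 12.99, 13.12 and 13.12. With E2+MPA, AURKA read 12.73, 12.84, 13.80 and 13.30, with E2+DHT 13.06, 13.02, 12.91 and 13.01 and with E2pre+P4 13.11, 12.87, 13.02 and 13.33. All P4 and MPA arrays lay below all vehicle arrays. AURKA differed by -0.35 ± 0.17 (SE) with P4 and by -0.38 ± 0.17 with MPA, and neither passed (adjusted p = 0.177 and 0.145). Its second probe differed by -0.29 and -0.38. AURKB, the passenger complex kinase, differed by -0.37 ± 0.15 (SE) between E2+MPA and E2 (adjusted p = 0.276).

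Of the 11 genes of the spindle checkpoint and kinetochore, BUB1, BUB1B and NDC80 were variable, BUB3, CENPA and ZWINT had SDs of 0.17 to 0.19, and the other 5 lay between 0.20 and 0.40. BUB1B, a checkpoint protein also known as BUBR1, was faint, being detected on 27 of 36 arrays and on 2 of the 4 vehicle arrays. It was 1.22 ± 0.34 (SE) higher with MPA than with vehicle (limma, adjusted p = 0.0557) and 1.07 ± 0.34 higher with E2pre+P4 (adjusted p = 0.0554). The differences were, with the run as a block, 0.81 ± 0.24 and 0.66 ± 0.24 (adjusted p = 0.16 and 0.14). CENPF, a kinetochore protein that peaks in G2 and mitosis, differed from vehicle by -0.59 ± 0.17 (SE) with P4, -0.55 ± 0.17 with MPA and -0.57 ± 0.17 with DHT (adjusted p = 0.112, 0.0859 and 0.0799). Without vehicle replicate 4, CENPF was the 1 gene of the 40 called in each of these comparisons (limma, adjusted p = 0.0431, 0.0272 and 0.0177, against 0.606%, 2.17% and 3.02% of all genes). It was called in none of them with the run as a block (-0.33 ± 0.21, -0.38 ± 0.19 and -0.49 ± 0.20, adjusted p = 0.858, 0.459 and 0.231). Within runs, MPA differed from the vehicle array by -0.67 in run 5 and DHT by -0.11 in run 3, while no run held both P4 and vehicle arrays. CENPE, a motor that carries chromosomes to the spindle equator, differed by -0.45 ± 0.15 (SE) with P4 (adjusted p = 0.122), while its second probe was 1.35 higher.

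The genes around the anaphase-promoting complex had narrow spreads. CDC20, which activates the complex, varied least of the 40. CDC20 stood at 12.90, 12.72, 12.84 and 13.06 on the vehicle arrays, at 12.83, 13.004, 13.03 and 12.77 with E2 and at 12.63, 12.82, 12.78 and 12.80 with P4. With MPA, CDC20 read 12.55, 12.85, 12.75 and 12.70, with DHT 12.75, 12.88, 12.77 and 12.88 and with E2+P4 12.65, 12.84, 12.81 and 13.01. With E2+MPA, CDC20 read 12.90, 12.91, 12.95 and 13.01, with E2+DHT 12.87, 12.82, 12.86 and 12.55 and with E2pre+P4 12.85, 12.83, 12.92 and 12.97. All values lay between 12.55 and 13.06. With E2 the difference from vehicle was 0.03 ± 0.10 (SE), with a 95% interval of -0.17 to 0.23, and with MPA it was -0.17 ± 0.10. UBE2C works with the complex to put the first ubiquitin on its targets. UBE2C stood at 13.46, 13.98, 13.92 and 14.11 on the vehicle arrays, at 14.17, 14.18, 14.25 and 14.19 with E2 and at 14.31, 14.02, 13.88 and 13.89 with P4. With MPA, UBE2C read 14.15, 14.10, 13.90 and 13.98, with DHT 14.26, 13.63, 13.87 and 14.01 and with E2+P4 14.21, 14.06, 14.10 and 14.17. With E2+MPA, UBE2C read 14.06, 14.06, 13.35 and 13.53, with E2+DHT 14.16, 14.08, 14.01 and 13.80 and with E2pre+P4 14.22, 14.11, 14.21 and 14.18. The E2 arrays, between 14.17 and 14.25, lay above all vehicle arrays (1.73% of all genes were higher without overlap), and E2+MPA replicates 3 and 4 were low. UBE2C was 0.33 ± 0.15 (SE) higher with E2 than with vehicle (adjusted p = 0.429), and differed by -0.45 ± 0.15 between E2+MPA and E2 (adjusted p = 0.15). PTTG1, securin, differed by -0.40 ± 0.13 (SE) between E2+MPA and E2 (adjusted p = 0.143). PTTG1 had an SD of 0.17 and ESPL1, separase, of 0.19.

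Of the 9 motors and spindle assembly factors, ASPM was variable, and the SDs of the others ran from 0.13 for PRC1, a microtubule bundler, to 0.25 for KIF20A, a motor of the spindle midzone. The median difference of the 9 from vehicle was 0.02 with E2, -0.22 with P4, -0.22 with MPA and -0.21 with DHT. In limma, 0 of the 9 were called in any treatment, against 0% to 6.18% of all genes. At an unadjusted p under 0.05 there were 0 to 4, against 10.5% to 28.3% of all genes, and the 4 were with MPA (28.3%). KIF20A differed by -0.57 ± 0.18 (SE) with MPA (adjusted p = 0.0874), and by -0.33 ± 0.14 without 4 arrays and with the run as a block (adjusted p = 0.438). Of the cytokinesis genes, ANLN and ECT2, both variable, ECT2 was 1.81 ± 0.69 (SE) higher with P4 (adjusted p = 0.136), and differed by 0.19 ± 0.16 without 4 arrays and with the run as a block.

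TOP2A encodes the topoisomerase that untangles sister chromatids. TOP2A stood at 13.70, 13.31, 13.44 and 13.41 on the vehicle arrays, at 13.56, 13.33, 13.41 and 13.19 with E2 and at 12.91, 13.04, 13.05 and 13.05 with P4. With MPA, TOP2A read 12.93, 13.09, 12.90 and 12.91, with DHT 13.09, 13.51, 12.82 and 13.11 and with E2+P4 13.25, 13.11, 13.09 and 13.40. With E2+MPA, TOP2A read 12.80, 13.10, 13.90 and 13.50, with E2+DHT 13.28, 12.96, 12.90 and 13.21 and with E2pre+P4 13.25, 13.26, 13.16 and 13.40. All P4 and MPA arrays, between 12.90 and 13.09, lay below the lowest vehicle array, at 13.31, as did those of E2+DHT (5.12% of all genes were lower without overlap), while E2+MPA replicates 3 and 4 lay above it. TOP2A differed from vehicle by -0.45 ± 0.16 (SE) with P4 and by -0.51 ± 0.16 with MPA, and neither passed (limma, adjusted p = 0.128 and 0.0865). With DHT, E2+DHT and E2+MPA it differed by -0.33 ± 0.16, -0.38 ± 0.16 and -0.14 ± 0.16 (adjusted p = 0.339, 0.172 and 0.69). Without 4 arrays and with the run as a block the differences with P4 and MPA were -0.22 ± 0.14 and -0.35 ± 0.13 (adjusted p = 1 and 0.273). FOXM1 is a transcription factor of late cell cycle genes. FOXM1 stood at 11.34, 10.93, 10.93 and 11.17 on the vehicle arrays, at 11.24, 11.14, 11.24 and 10.85 with E2 and at 10.73, 10.93, 10.72 and 10.84 with P4. With MPA, FOXM1 read 10.71, 10.77, 10.69 and 11.57, with DHT 10.78, 10.92, 10.47 and 11.05 and with E2+P4 11.16, 10.93, 11.26 and 11.19. With E2+MPA, FOXM1 read 10.60, 11.04, 11.37 and 10.76, with E2+DHT 10.87, 10.90, 10.998 and 10.88 and with E2pre+P4 10.94, 10.91, 11.14 and 11.44. Its groups overlapped in all comparisons, and MPA replicate 4 was high, at 11.57. The differences from vehicle ran from -0.29 ± 0.17 (SE) with DHT to 0.04 ± 0.17 with E2+P4 (lowest adjusted p = 0.265).

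Adding a steroid to E2 changed none of the 40 genes past the threshold. With P4 added, 0 were called in limma and 0 had an unadjusted p under 0.05, against 0% and 0.929% of all genes. MPA added gave 0 and 5, all 5 lower, against 0.889% and 11.7%. DHT added gave 0 and 1, against 0.818% and 7.10%. E2pre+P4 against E2+P4, which differ in the length of E2, gave 0 and 0, against 0.0101% and 3.47%. The first 3 comparisons share the E2 arrays. Without the 2 arrays that went against their labels, 0 of the 40 were called in limma in these 4 comparisons, and 0 (1.01%), 4 (11.5%), 0 (5.11%) and 0 (5.89%) had an unadjusted p under 0.05, with the percentages of all genes in parentheses. The run block gave 0 calls in limma, and these counts were then 0 (1.28%), 6 (15.7%), 0 (5.72%) and 0 (4.50%).

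Interaction terms gave the difference of a steroid's effect with and without E2. For P4, 0 of the 40 genes were called in limma and 0 had an unadjusted p under 0.05, against 0.0101% and 3.66% of all genes. For MPA the counts were 0 and 5, against 0% and 14.6%, and for DHT 0 and 1, against 0% and 4.68%. The variable genes had a median interaction of -0.82 for P4 and -1.20 for MPA, and the other 30 of 0.12 and 0.18. The groups of these contrasts differ in how many of their arrays lie in runs 3 and 4, and the variable genes were picked by their spread in these data. With the run as a block, 0 of the 40 genes were called in limma, and 0 (2.29%), 3 (10.2%) and 2 (3.84%) had an unadjusted p under 0.05 in the interactions of P4, MPA and DHT, with the percentages of all genes in parentheses. Without the 2 arrays that went against their labels, 0 were called in limma and these counts were 1 (4.76%), 10 (17.7%) and 1 (3.28%), the 10 for MPA being 6 higher and 4 lower.

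P4, MPA and DHT differ in structure. MPA is a synthetic derivative of progesterone with an acetate ester, and DHT lacks the side chain that progesterone carries. They were compared at the same dose and time in 6 pairs, with p-values adjusted over all genes within each pair. MPA against P4 gave 0 calls in limma and 0 genes of the 40 with an unadjusted p under 0.05, against 0.374% and 2.83% of all genes, and the fitted differences ran from -0.22 to 0.21. DHT against P4 gave 0 and 5, all lower and all variable genes, against 1.42% and 15.8%. DHT against MPA gave 0 and 3, likewise, against 0.303% and 11.7%. On top of E2, MPA against P4 gave 0 and 4 (0.465% and 13.7%), DHT against P4 0 and 0 (0.747% and 5.25%), and DHT against MPA 0 and 2 (0.293% and 7.42%). Runs 3 and 4, where the variable genes read low, held 3 of the 4 DHT arrays and 0 of the P4 and MPA arrays. In none of the 6 pairs was any of the 40 genes called in limma with the run as a block. The unadjusted counts were then, in the same order, 1 (4.07%), 0 (5.56%) and 1 (4.26%) without E2 and 7 (16.2%), 1 (7.24%) and 1 (6.10%) with E2, with the percentages of all genes in parentheses. TOP2A differed by -0.05 between MPA and P4, with a 95% interval of -0.38 to 0.27, and by 0.12 between DHT and P4, with an interval of -0.21 to 0.44. These values do not show that the steroids act alike.

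The intervals give the size of change that the arrays could have missed. In the comparisons of a pair of groups, between 29 and 35 of the 40 genes had a 95% interval wholly within 2-fold on either side, and between 15 and 30 within 1.5-fold. Without 4 arrays and with the run as a block these counts were 39 to 40 and 26 to 38. For E2 against vehicle they were 34 and 24, and then 40 and 32. The 4 arrays were chosen after seeing the data, some for extreme levels of these genes, so narrower intervals follow in part from that choice. The median interval reached 0.34 (log2) to each side for a pair of groups and 0.49 for an interaction. That of NEK2 with E2 reached from -1.24 to 2.10.

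The wider mitotic apparatus gave few calls. Of 88 further mitosis genes measured, from a list of 92, 1 was called with E2+P4 against vehicle, 3 with E2pre+P4 and 1 with MPA, against 1.92%, 6.18% and 1.96% of all genes. In the other 5 treatments 0 were called in limma. There, 9 had an unadjusted p under 0.05 with E2 (10.5% of all genes), 31 with P4 (26.3%), 13 with DHT (14.0%), 10 with E2+MPA (18.3%) and 20 with E2+DHT (21.9%). In the 3 treatments with calls, 14 of the 88 did with E2+P4 (15.2% of all genes), 23 with E2pre+P4 (24.8%) and 35 with MPA (28.3%). CENPU, a kinetochore subunit, was 1.08 ± 0.28 (SE) higher with E2+P4 (adjusted p = 0.0377) and 1.21 ± 0.28 higher with E2pre+P4 (adjusted p = 0.00707). Its vehicle arrays lay between 7.11 and 8.61 and those of E2pre+P4 between 8.82 and 9.44, without overlap. KIF18A, a motor that aligns chromosomes, was 0.81 ± 0.24 (SE) higher with E2pre+P4 (adjusted p = 0.042). NIPBL, the cohesin loader, differed by -0.58 ± 0.17 with E2pre+P4 and by -0.64 ± 0.17 with MPA (adjusted p = 0.0337 and 0.0386). With the run as a block CENPU was called with E2+P4 (adjusted p = 0.0313), while the calls with E2pre+P4 and MPA were lost (adjusted p = 0.0752 for CENPU, 0.06 for KIF18A, 0.177 and 0.313 for NIPBL). Without the 2 arrays that went against their labels, KIF18A and NIPBL were not called with E2pre+P4 (adjusted p = 0.0956 and 0.0934). Vehicle replicate 1 was the lowest vehicle array for CENPU (7.11) and KIF18A (7.94) and the highest for NIPBL (10.79). Whether their calls hold without it was not tested. The run block added 3 calls for E2+MPA against vehicle, where 6.42% of all genes were called. CENPU and HMMR, a spindle protein, were higher (0.91 ± 0.27 and 0.44 ± 0.13, SE, adjusted p = 0.0384 and 0.0348), and MKI67, the gene of the proliferation marker Ki-67, differed by -0.72 ± 0.21 (adjusted p = 0.0434). With all arrays and no block the adjusted p were 0.0575, 0.0565 and 0.18. CENPU with E2+MPA was also called without the 2 arrays (adjusted p = 0.0302, against 4.27% of all genes).

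Replication genes and regulators of the late cycle were called in a few places. Of 35 DNA replication genes measured, CDC45 and GINS2, parts of the replicative helicase, were higher with E2+P4 (0.36 ± 0.10 and 0.49 ± 0.12, SE, limma, adjusted p = 0.0467 and 0.0293). They were also higher with E2pre+P4 (0.43 ± 0.10 and 0.48 ± 0.12, adjusted p = 0.00589 and 0.0166). EXO1, a nuclease gene, differed by -0.40 ± 0.10 with DHT (adjusted p = 0.0239). CDC45 also differed by -0.38 ± 0.10 (SE) between DHT and P4 (limma, adjusted p = 0.0413), where 1.42% of all genes were called. That call stood with the run as a block (-0.47 ± 0.11, adjusted p = 0.0288) and without the 2 arrays that went against their labels (adjusted p = 0.0444). Of 22 regulators of the DREAM, MYB-MuvB and E2F families, RBL2, a pocket protein of DREAM, differed by -0.56 ± 0.14 with E2+P4, -0.53 ± 0.14 with E2+DHT and -0.68 ± 0.14 with E2pre+P4 (adjusted p = 0.0211, 0.0155 and 0.00157). The repressor E2F7 differed by -0.70 ± 0.17 with DHT (adjusted p = 0.0223), and NFYC, a subunit of the CCAAT factor NF-Y, by -0.61 ± 0.16 with E2+DHT (adjusted p = 0.0169). Over all genes, 1.92% were called with E2+P4, 2.40% with DHT, 4.81% with E2+DHT and 6.18% with E2pre+P4. With the run as a block, CDC45 with E2+P4, GINS2 with E2pre+P4, EXO1, E2F7 and RBL2 with E2+DHT were not called (adjusted p = 0.0579, 0.128, 0.0715, 0.0766 and 0.055), and the other calls against vehicle stood. Without the 2 arrays that went against their labels, CDC45 with E2+P4 was not called (adjusted p = 0.0537), and the other calls against vehicle stood there too. Vehicle replicate 1 was the extreme vehicle array for each of these genes but EXO1. RBL2 read 11.91 on it (other vehicle arrays 11.29 to 11.57), NFYC 10.61 (9.91 to 10.09) and E2F7 10.26 (9.41 to 9.59). GINS2 read 12.46 (12.92 to 13.15) and CDC45 12.35 (12.40 to 12.64). Whether these calls against vehicle hold without that array was not tested. Of 15 further genes of the anaphase-promoting complex and 7 G1 cyclins and partners, 0 were called against vehicle in limma, and 1 to 6 and 0 to 3 had an unadjusted p under 0.05. Over all genes, 0% to 6.18% were called in the comparisons with vehicle, and 10.5% to 28.3% had an unadjusted p under 0.05. Of the 35 replication genes, between 2 (with E2+MPA, 18.3% of all genes) and 17 (with MPA, 28.3%) had an unadjusted p under 0.05 against vehicle, and 7 with E2 (10.5%). Of the 22 regulators, 2 to 7 did. The run block added calls against vehicle in these lists too. MCM10, which acts at replication origins, was higher with E2+P4 and E2pre+P4 (0.57 ± 0.15 and 0.75 ± 0.16, SE, limma, adjusted p = 0.0319 and 0.00558), where 2.44% and 4.10% of all genes were called. RFC2, a subunit of the clamp loader, was higher with E2+MPA (1.00 ± 0.26, adjusted p = 0.0209), where 6.42% of all genes were called. With DHT, where 1.83% of all genes were called, MCM2, a helicase subunit, differed by -0.49 ± 0.11 and CCNE1, cyclin E1, by -0.52 ± 0.13 (adjusted p = 0.0176 and 0.0289). None of these 4 genes was called in these comparisons with all arrays and no block (adjusted p = 0.336 and 0.123 for MCM10, 0.308 for RFC2, 0.413 for MCM2 and 0.237 for CCNE1).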

How the data were processed

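Total RNA of 36 samples had been hybridised to Illumina HumanWG-6 v3 BeadChips, 1 array each. The authors exported the deposited signal intensity of each probe from BeadStudio, without normalisation, with a detection value per probe that is 1 minus the detection p-value. The software's version is not given in the sources used here. The number of arrays, 4 per group, limits the precision. Intensities were background-corrected (normexp, offset 16), quantile-normalised and put on the log2 scale with neqc in limma 3.58.1 (R 4.3.3). Of 48803 probes, 15112 passed a detection p of 0.01 on 4 or more arrays. Probe names came from the platform's annotation: 27578 probes had 1 gene symbol, 13 several and 21212 none. The probe with the highest mean was kept for each of 9902 genes, 2410 of which had several.

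A single limma model of the 9 groups, over all arrays, gave 21 comparisons, with Benjamini-Hochberg adjustment over all genes and a threshold of 0.05. The code was tested on simulated data. Members and gene lists were chosen with earlier results of these data known. Every array's value was given for those of the 40 genes that were called with all arrays or without the 2 arrays that went against their labels, and for CCNB1, CDK1, CDC20, PLK1, AURKA, BIRC5, TOP2A, FOXM1 and UBE2C. The study's variance-stabilising normalisation and ComBat were not run, since no source used here names the batches. Replicate numbers did not pair the arrays: deviations from group means correlated between -0.87 and 0.77 (mean 0.017) over 144 pairs with the same number, and 10 of 36 arrays correlated best with their own number. Arrays of the same run of 6 correlated between -0.58 and 0.91 (mean 0.22) over 82 pairs, and others between -0.87 and 0.80 (mean -0.04). For the runs too, 10 of 36 arrays correlated best with their own run. A second deposited table of intensities was, per array, a straight line of the first (slopes 0.324 to 1.573). Between 0.0635% and 43.7% of its values per array lay below 0, and it served as an alternative. Other alternatives were cyclic loess, no background correction, an offset of 50, no detection filter, the mean over probes, a replicate block, the run as a block, only the groups compared, and arrays left out.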

Additional observations from a re-analysis of the deposited data

Results flagged for a closer look

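In 12 of 90 checks (10 measures in 9 groups of 4), the highest or lowest array stood far from the other 3 of its group. Chance flags about 1 in 20 groups. The measures were the mean over the 40 genes and the 9 genes whose arrays are given one by one.

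The mean level over the 40 genes stood apart on E2 replicate 4, the highest of its group at 11.48, and on E2+MPA replicate 3, the lowest at 11.01. CCNB1 was highest on DHT replicate 3, at 10.40, lowest in its group on E2+P4 replicate 4, at 8.45, and lowest on E2+DHT replicate 1, at 8.45. CDK1 was highest on DHT replicate 3, at 12.53, and lowest on MPA replicate 4, at 12.24. DHT replicate 3 and E2 replicate 4 were the arrays of their groups outside runs 3 and 4, while E2+P4 replicate 4 and E2+DHT replicate 1 were those of their groups inside them. BIRC5 was lowest on vehicle replicate 1, at 9.68. CDC20 and PLK1 were lowest on E2+DHT replicate 4, at 12.55 and 9.24. TOP2A was lowest on P4 replicate 1, at 12.91, and FOXM1 was highest on MPA replicate 4, at 11.57.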

How the results depend on the processing

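Under alternatives that kept all arrays or left several out together, 256 counts of called genes did not move, and 17 moved between 0 and 1. CDC25B was the 1 call for E2+MPA against vehicle under cyclic loess, no background correction, an offset of 50, the second deposited table, the mean over probes, the replicate block, the run as a block, and the run as a block without 2 arrays. NEK2 was the 1 call there without 4 arrays and with the run as a block. BIRC5 was the 1 call for E2+P4 against vehicle with no background correction and with the replicate block (adjusted p = 0.0452 and 0.0432). For E2pre+P4 against vehicle the count was 0 with the mean over probes, the run as a block, only the groups compared, the run as a block without 2 arrays, and without 4 arrays with or without that block (adjusted p of BIRC5 0.0157 to 0.295 over 13 alternatives, called in 7). The replicate numbers do not pair the arrays, and the replicate block changed no other count. With 1 array left out in turn, the counts against vehicle ranged from 0 to 10 with P4, 0 to 10 with MPA, 0 to 1 with DHT, 0 to 1 with E2+P4, 0 to 2 with E2+MPA, 0 to 3 with E2+DHT and 0 to 5 with E2pre+P4. They ranged from 0 to 1 for E2+MPA against E2, 0 to 1 for E2+MPA against E2+P4 and 0 to 3 for DHT against P4. The median over the 40 genes moved by more than the replicate SD of 0.11 in 11 cases. For P4 against vehicle it was 0.0069 with loess, 0.0754 with the mean over probes, -0.0031 with the run as a block and 0.0116 without 4 arrays and with that block. With the mean over probes it was 0.0714 for MPA, 0.1418 for E2+DHT and 0.2699 for E2pre+P4 against vehicle. The interaction of E2 and MPA gave -0.1736 with loess and -0.1851 with the mean over probes, and that of E2 and P4 gave -0.1241 with the mean over probes and -0.0612 with the run as a block. The cause was not tested. The alternatives that combine left-out arrays with the run block, or leave out 4 arrays, were chosen after seeing the data.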
